A study of Homo sapiens with 8 samples.

Results

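Collagens, laminins and integrins were followed as 3 gene families in MEL1, an established human embryonic stem cell (ESC) line. A gene belonged if its symbol in the count tables was COL, a number, A and a number (collagen chains), LAM, a letter A, B or C and a number (laminin chains), or ITGA or ITGB followed by a number, a number and B, or a letter (integrin chains). The rule found 82 of 27317 symbols, namely 44 collagens, 12 laminins and 26 integrins. It used names only and no measured value.

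The study asked which genes differ in ESC and in early mesoderm after TCDD, a dioxin and strong activator of the aryl hydrocarbon receptor, was given during the ESC stage. The 4 groups had 2 RNA sequencing libraries each: DMSO (solvent) at D1, 2 nM TCDD at D1, DMSO at D2 and 2 nM TCDD at D2. All cells were MEL1 ESC grown in E8 medium to near confluency. D1 cells were taken just before differentiation, and D2 cells were taken 2 days after it began, in RPMI1640 with B27 lacking insulin and 5 µM CHIR99021, a GSK3 inhibitor that activates Wnt signalling. D2 against D1 therefore changes time, medium and inhibitor together, and their parts cannot be told apart. The length of the exposure is not given in the sources used here. Nothing in the labels says that the libraries of a group came from separate cultures, so p-values reflect no more than the variation among these samples, and that variation may be technical.

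Collagens are trimers of alpha chains that form fibrils, networks, filaments or membrane proteins outside the cell. Laminins are trimers of an alpha, a beta and a gamma chain that, with type IV collagen, build the basement membrane sheet under epithelial cells. Integrins are alpha-beta pairs in the cell membrane that bind these and other matrix proteins and link them to the actin or keratin skeleton. Human ESC form an epithelial sheet that depends on integrin contact with laminin, vitronectin or similar coats, and cells leave such a sheet when mesoderm forms.

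Library totals ran from 34873055 to 43770420 counts, and the 82 genes took 0.526% to 0.597% of them. Levels are CPM values (counts scaled to a common library size) on library totals scaled by edgeR's TMM method, and a gene was called changed at a Benjamini-Hochberg adjusted p below 0.05 over all 17268 genes tested. The sampled cells carried the marks of their labels at D1: 7 pluripotency markers summed to 7774 to 7948 CPM with DMSO, while 7 primitive streak markers summed to 18.9 to 20.7 CPM. At D2 with DMSO the pluripotency sum was 5034 to 5150 CPM and the streak sum 1133 to 1136 CPM. With TCDD the sums were 7291 to 7415 and 15.2 to 16.9 CPM at D1, and 5507 to 5628 and 752 to 844 CPM at D2. The early lateral and cardiac mesoderm markers did not rise in sum with DMSO, at 98.4 to 110 CPM at D1 and 97.2 to 100 CPM at D2. The definitive endoderm markers summed to 1.78 to 3.98 CPM with DMSO at D1 and 45.6 to 48.8 CPM at D2. Single pluripotency genes did not all follow their sum: from D1 to D2, 1 of 7 was called higher and 4 lower with DMSO, and 4 higher and 3 lower with TCDD. Over all genes tested, 32.5% were called higher and 30.7% lower with DMSO, and 33.1% and 32.2% with TCDD.

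Of the 82 genes, 75 had enough counts to be tested (41 collagens, 11 laminins and 23 integrins). LAMB4 had no count in any library, and COL3A1, a fibrillar collagen of connective tissue, had at most 2 counts in a library. The other untested genes were COL19A1, COL6A5, ITGA8, ITGAD and ITGB6, with at most 4, 10, 3, 2 and 1 counts. Among the tested genes, 37 had a mean of at least 10 CPM in every group (18 collagens, 8 laminins and 11 integrins), and 10 stayed below 1 CPM in every group mean.

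Levels can be compared between genes only per length, here as CPM per kb of merged exon (GENCODE 29 basic models, GRCh38, which is not the annotation behind the counts). In DMSO cells at D1 the laminin chains stood in the order LAMA5 (62.1 CPM per kb, the alpha chain typical of pluripotent cells), LAMC1 (48.9), LAMB2 (32.4), LAMB1 (27.8) and LAMA1 (12.7). No neighbours in that order had overlapping libraries. ITGB1, the beta chain shared by most matrix-binding integrins, had 132 CPM per kb, ahead of ITGB5 (55.7), the laminin-binding alpha chain ITGA6 (47.8), ITGA7 (20.4) and ITGAV (14.0). The highest collagens were COL9A3 at 119, COL18A1 at 54.5, COL1A1 at 48.3, COL6A1 at 44.2, COL26A1 at 39.7 and COL6A2 at 35.5 CPM per kb. COL9A3 overlaps TCFL5 on the opposite strand, and the strand setting of the counting is not given in the sources used here, so its counts are uncertain.

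In DMSO cells at D2 the order had changed. COL6A1 (108 CPM per kb) and COL6A2 (105) led the collagens, with library ranges of 106 to 110 and 104 to 106. COL18A1 followed at 76.2 and COL9A3 at 69.0, and these did not overlap. LAMC1 led the laminins at 48.2, while LAMA5 (42.5 to 45.8 over libraries) and LAMB1 (43.1 to 44.7) overlapped. ITGB5 at 101 CPM per kb stood just above ITGB1 at 96.9, where at D1 it had been far below. With TCDD at D2, ITGB5 at 91.2 stood below ITGB1 at 97.8.

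**Figure D1:**
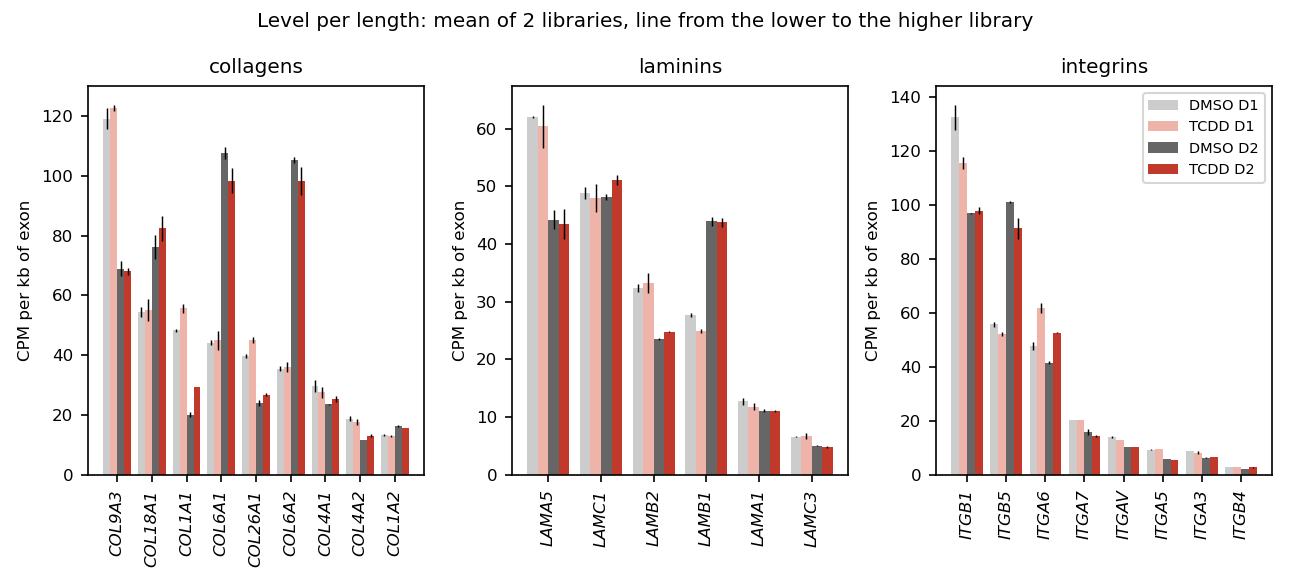
Level per length (CPM per kb of merged exon) of the most abundant collagens, laminins and integrins in the 4 groups; bars are means of 2 libraries and lines run from the lower to the higher library. COL6A1, COL6A2, LAMB1 and ITGB5 are taller at D2 than at D1 in both treatments, while COL1A1, COL9A3, LAMA5 and ITGB1 are shorter.

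From D1 to D2 with DMSO, 60 of the 75 tested genes were called, 10 higher and 50 lower. Over all 17268 genes 63.2% were called, 32.5% higher and 30.7% lower, against 13.3% higher and 66.7% lower here. The same shares of all genes stand beside the counts of subgroups given below, several of which hold few genes. The median log2 fold change of the 75 was -0.45, beside 0.01 over all genes. Collagens had 8 higher, 26 lower and 7 not called, laminins 1, 7 and 3, and integrins 1, 17 and 5. Called rises were 1.22-fold to 2.96-fold and called falls 1.14-fold to 5.62-fold. At least 2-fold and called, 2 rose (COL6A1 and COL6A2) and 21 fell, where 4% of all genes rose and 9.53% fell by that rule. In bulk RNA, fewer cells of a type and less RNA per cell cannot be told apart.

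**Figure D2:**
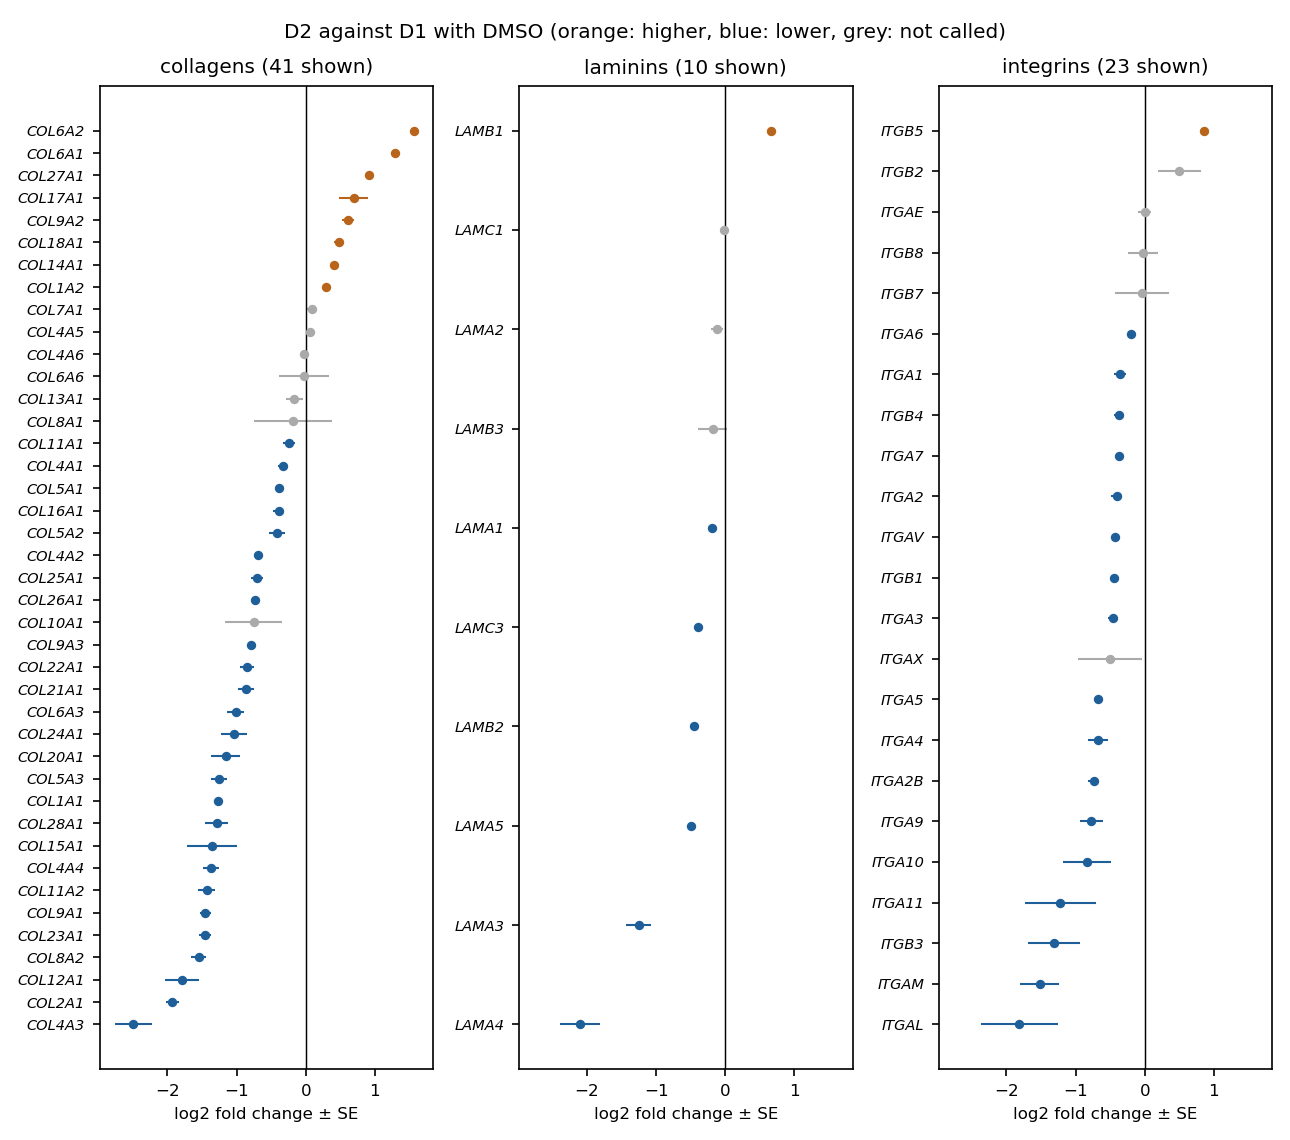
Log2 fold change of D2 against D1 with DMSO for the 41 tested collagens, 10 of the 11 tested laminins and the 23 tested integrins, with standard error (lines); orange is called higher, blue called lower and grey not called. Most points lie left of 0, and COL6A2, COL6A1, COL27A1, LAMB1 and ITGB5 stand at the right.

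The fibrillar collagens, which make the cross-striated fibrils of connective tissue, were all called among the 10 tested, 2 higher and 8 lower. COL1A1, the alpha1 chain of type I collagen, had 322 and 328 CPM in the DMSO libraries at D1 and 141 and 129 CPM at D2. It fell 2.41-fold (log2 -1.27 ± 0.05 SE, edgeR adjusted p = 7.51e-15). Its partner COL1A2, the alpha2 chain, had 74.6 and 70.0 CPM at D1 and 89.6 and 87.1 CPM at D2, so the chains moved in opposite directions. COL1A2 rose 1.22-fold (log2 0.29 ± 0.05 SE, edgeR adjusted p = 4.1e-05). The usual trimer of type I collagen holds more alpha1 than alpha2 chains. Per kb, COL1A1 stood 3.48 and 3.78 times as high as COL1A2 in the DMSO libraries at D1 and 1.27 and 1.19 times at D2. COL27A1, a fibrillar chain of cartilage, rose from 50.3 and 46.8 CPM to 84.5 and 99.02 CPM (log2 0.92 ± 0.07 SE). COL5A2, a chain of the type V fibril core, fell from 17.9 and 13.7 to 12.5 and 11.2 CPM (log2 -0.42 ± 0.11 SE), a call lost without DMSO D1 replicate 1 or DMSO D2 replicate 2 (highest edgeR adjusted p = 0.116). COL2A1, the main cartilage fibril chain, fell from 23.9 and 26.9 to 6.69 and 6.64 CPM (log2 -1.93 ± 0.09 SE).

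Fibroblasts are a usual source of COL1A1, so 9 fibroblast and mesenchyme markers were read beside it. Their sum was 479 to 527 CPM in the DMSO libraries at D1 and 102 to 103 CPM at D2. Among the 6 tested, 3 were lower (50%) and 1 higher (16.7%), or 66.7% called. Over all genes 30.7% were lower and 32.5% higher, or 63.2% called. The called markers were THY1, PDGFRB, S100A4 and POSTN. DESeq2 did not call POSTN (adjusted p = 0.0971), and its edgeR call did not hold in every fit without 1 library. Most of that sum was THY1, which pluripotent cells also carry, with 479.8 and 435 CPM at D1 and 82.9 and 80.9 CPM at D2. DCN, LUM and FAP were at 0 in the DMSO libraries of both days. The part of these cells in the COL1A1 values was not tested.

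Type IV collagen forms the network of basement membranes. Among its 6 chains 4 were lower, none was higher, and COL4A5 and COL4A6 were not called (log2 0.06 ± 0.05 and -0.02 ± 0.06 SE). COL4A1 had 238 and 209 CPM at D1 and 178 and 177 at D2 with DMSO (log2 -0.33 ± 0.07 SE, edgeR adjusted p = 0.000433). COL4A2 had 254 and 232 CPM at D1 and 149.8 and 152 at D2 (log2 -0.69 ± 0.06 SE, edgeR adjusted p = 2.66e-09). Both pairs of groups were apart, and the fall of COL4A2 was the larger. Per kb, COL4A1 stood 1.61 and 1.55 times as high as COL4A2 at D1 and 2.05 and 2.00 times at D2. COL4A3 and COL4A4, chains of the mature kidney filter, were low and fell furthest: COL4A3 went from 1.88 and 1.63 to 0.328 and 0.292 CPM, and COL4A4 from 10.2 and 9.66 to 4.01 and 3.67 CPM.

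COL4A1 and COL4A2 start head to head on chromosome 13, and the stretch between their starts serves both genes, so it is shown as the promoter of a pair that moved together but unequally. It spans 126 bases at chr13:110307158-110307283 (RefSeq, GRCh38.p14), printed on the plus strand, on which COL4A2 is read. Capitals mark the promoter elements CCAAT box and GC box (GGGCGG).
Between COL4A1 and COL4A2: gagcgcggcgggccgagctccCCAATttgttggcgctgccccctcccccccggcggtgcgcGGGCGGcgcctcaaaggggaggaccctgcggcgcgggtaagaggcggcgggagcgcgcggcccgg
In the 250 bases before a start, CCAAT on either strand occurred in 22.1% of 77 windows of 58 genes of the 3 families with an entry in the RefSeq table, beside 32% of 35116 windows of all genes. GGGCGG on either strand occurred in 53.2% and 42.6%.

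Type VI collagen forms beaded filaments near cell surfaces and needs COL6A1, COL6A2 and an alpha3-type chain. COL6A2 had 159 and 153 CPM in the DMSO libraries at D1 and 459.6 and 468 at D2, the largest rise among the 75 genes (2.96-fold, log2 1.57 ± 0.05 SE, edgeR adjusted p = 2.07e-15). COL6A1 had 191 and 183 CPM at D1 and 448 and 465 at D2 (2.44-fold, log2 1.29 ± 0.06 SE, edgeR adjusted p = 2.06e-12). COL6A3, the common alpha3 chain, went the other way, from 7.94 and 8.62 to 4.01 and 4.19 CPM (log2 -1.01 ± 0.12 SE). COL6A6, another alpha3-type chain, stayed below 1 CPM in every library. COL6A1 and COL6A2 are neighbouring genes. Per kb, COL6A1 stood 1.24 times as high as COL6A2 in both DMSO libraries at D1 and 1.01 and 1.03 times at D2.

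COL18A1, a basement membrane collagen that carries heparan sulfate and yields endostatin, rose from 383 and 360.4 CPM to 493 and 547 CPM (log2 0.48 ± 0.07 SE, edgeR adjusted p = 0.000118). The other tested multiplexin, COL15A1, was under 1 CPM in all 4 DMSO libraries and was called lower. Of 9 tested fibril-associated collagens, which coat fibrils, 2 rose and 7 fell. The risers were COL14A1 (46.8 and 46.5 to 59.9 and 63.3 CPM) and COL9A2 (10.3 and 9.61 to 14.5 and 15.9 CPM). COL9A1 and COL9A3, which join COL9A2 in type IX collagen, fell, COL9A1 from 29.1 and 29.001 to 11.3 and 9.93 CPM and COL9A3 from 288 and 306 to 166 and 179 CPM. COL12A1, found in dense connective tissue, fell from 4.97 and 3.66 to 0.901 and 1.56 CPM. Of 3 tested short-chain collagens 1 fell, COL8A2, a chain of sheets under endothelia (11.3 and 11.3 to 4.01 and 3.75 CPM). Among 4 transmembrane collagens, COL23A1 fell from 20.2 and 20.3 to 6.83 and 7.93 CPM, COL25A1 fell, COL13A1 was not called, and COL17A1, the hemidesmosome collagen, rose at under 2 CPM (log2 0.69 ± 0.21 SE). The COL17A1 call was lost with DESeq2 (adjusted p = 0.0649) and without either DMSO D1 replicate 1 or DMSO D2 replicate 2 (edgeR adjusted p = 0.0596 and 0.0619).

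Among laminins only LAMB1, a beta chain of the early embryonic trimers, was called higher. It had 175 and 171 CPM in the DMSO libraries at D1 and 278 and 268 at D2 (1.58-fold, log2 0.66 ± 0.04 SE, edgeR adjusted p = 6.4e-11). LAMB2, the beta chain that can take its place in a trimer, went from 190.3 and 183 to 136 and 135 CPM (log2 -0.46 ± 0.05 SE, edgeR adjusted p = 8.3e-08). Per kb, LAMB1 stood at 0.851 and 0.866 of LAMB2 at D1 and at 1.89 and 1.84 times LAMB2 at D2, so the more abundant beta chain changed. LAMC1, the gamma chain of most laminins, was not called, with 394 and 378 CPM at D1 and 384 and 376 at D2 (log2 -0.02 ± 0.05 SE, edgeR adjusted p = 0.732). LAMA5 fell from 708 and 711 to 486 and 524 CPM (log2 -0.49 ± 0.06 SE). LAMA1, the alpha chain of the earliest embryonic basement membranes, had 132 and 119 CPM at D1 and 113 and 107 at D2 (log2 -0.19 ± 0.06 SE, edgeR adjusted p = 0.00593). Its call was lost without DMSO D1 replicate 1 (0.136) or DMSO D2 replicate 2 (0.0861). LAMA3 and LAMA4, chains of skin and vessel laminins, were at or under 3.78 CPM and fell, LAMA4 from 1.88 and 1.45 to 0.437 and 0.341 CPM.

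Of 16 tested integrin alpha chains, 14 fell and none rose, where 30.7% of all genes fell and 32.5% rose. DESeq2 called 11 of the 14, without ITGA10, ITGA11 and ITGAL (adjusted p = 0.158, 0.156 and 0.0944), each under 1 CPM in every DMSO library. All 3 laminin-binding chains (ITGA3, ITGA6 and ITGA7), all 4 collagen-binding chains (ITGA1, ITGA2, ITGA10 and ITGA11), all 3 tested chains that bind the RGD motif of fibronectin and vitronectin (ITGA2B, ITGA5 and ITGAV), ITGA4 and ITGA9, and 2 of 4 tested leukocyte chains (ITGAL and ITGAM, both under 2 CPM) were lower. ITGA5, the fibronectin receptor chain, went from 42.6 and 40.2 to 25.4 and 26.6 CPM (log2 -0.67 ± 0.06 SE). ITGAV, the vitronectin receptor chain, went from 105 and 97.4 to 75.5 and 75.2 CPM (log2 -0.42 ± 0.05 SE). ITGA6 had the smallest fall of the called alpha chains, from 288 and 269.7 to 246 and 239 CPM (log2 -0.20 ± 0.05 SE, edgeR adjusted p = 0.00078).

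Of 7 tested beta chains, 1 rose, 3 fell and 3 were not called (57.1% called, beside 63.2% of all genes). ITGB5, which pairs with ITGAV, had 239 and 248 CPM in the DMSO libraries at D1 and 440.1 and 443 at D2 (1.81-fold, log2 0.86 ± 0.05 SE, edgeR adjusted p = 2e-12). ITGB1 had 539 and 501 CPM at D1 and 382 and 380.2 at D2 (log2 -0.45 ± 0.05 SE, edgeR adjusted p = 2.71e-08). Per kb, ITGB5 stood at 0.399 and 0.444 of ITGB1 at D1 and at 1.04 and 1.05 times ITGB1 at D2. ITGB4, the hemidesmosome beta chain that pairs only with ITGA6, went from 17.5 and 17.9 to 14.0 and 13.4 CPM (log2 -0.37 ± 0.08 SE). ITGB3, the platelet chain, was under 1 CPM and fell, a call lost without DMSO D2 replicate 2 (edgeR adjusted p = 0.0753). ITGB8, ITGB2 and ITGB7 were not called.

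**Figure D3:**
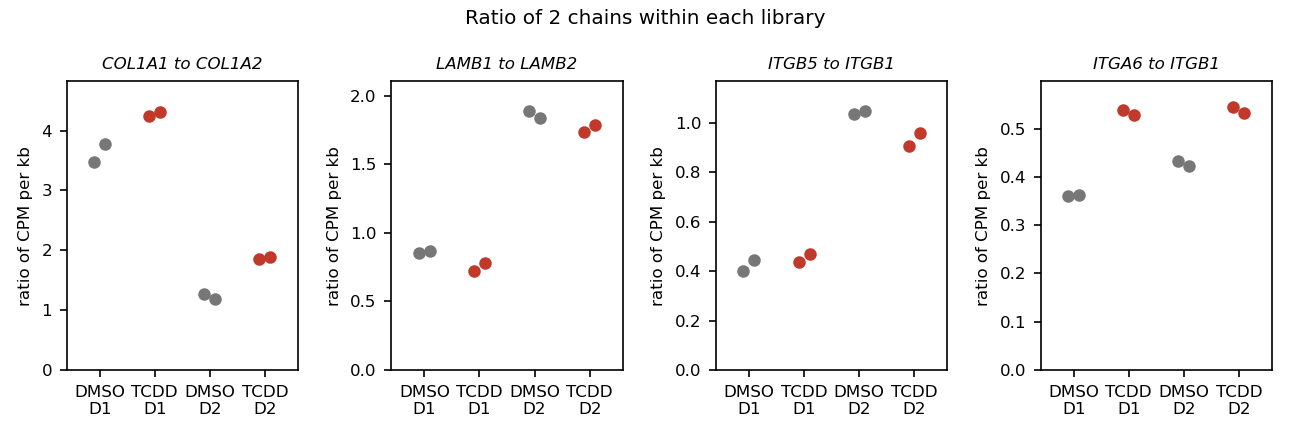
Ratio of CPM per kb of 2 chains within each of the 8 libraries (points; grey DMSO, red TCDD). COL1A1 to COL1A2 runs from 1.19 to 4.31 and is lowest with DMSO at D2, LAMB1 to LAMB2 and ITGB5 to ITGB1 are higher in every D2 library than in every D1 library, and ITGA6 to ITGB1 is higher in every TCDD library than in every DMSO library.

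With TCDD, 57 of the 75 genes were called between D1 and D2 (11 higher and 46 lower), where 65.3% of all genes were called, 33.1% higher and 32.2% lower. At least 2-fold and called, 3 rose (COL6A1, COL6A2 and COL6A6) and 18 fell, where 3.83% of all genes rose and 10.5% fell by that rule. Of the 57 genes, 55 were also called the same way with DMSO (10 higher and 45 lower), and none was called in opposite directions. Among genes called with a single treatment, COL11A1, COL4A1, LAMA1 and ITGB4 were lower with DMSO. COL13A1 was called lower only with TCDD and COL6A6 was called higher only with TCDD. DESeq2 called neither of the latter pair with TCDD (adjusted p = 0.0518 and 0.13). The COL13A1 call was also lost without TCDD D1 replicate 1 or TCDD D2 replicate 1 (highest edgeR adjusted p = 0.312), and the COL6A6 call without TCDD D1 replicate 1, TCDD D1 replicate 2 or TCDD D2 replicate 2 (highest 0.201). For none of these 6 did the test of the difference itself pass (lowest edgeR adjusted p = 0.303, for ITGB4). The COL11A1 call with DMSO was lost without DMSO D1 replicate 1 or DMSO D2 replicate 1 (highest edgeR adjusted p = 0.264). Among the genes called with both treatments, DESeq2 did not call COL9A2, COL17A1, COL24A1, ITGA1 and ITGB3 with TCDD (adjusted p = 0.134, 0.0945, 0.0648, 0.093 and 0.0776).

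At D1, TCDD against DMSO gave 4 called genes among the 75, COL1A1, COL23A1 and ITGA6 higher and ITGB1 lower, or 5.33%, beside 1.14% of all genes (0.735% higher and 0.405% lower). None reached 2-fold, a size that 0.151% of all genes passed upward and 0.0174% downward. The median log2 fold change of the 75 was -0.04, beside 0.00 over all genes. Among the 34 genes not called at 10 CPM or more in every group, log2 fold changes lay between -0.22 and 0.18.

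COL23A1, a transmembrane collagen whose outer part can be shed, had 20.2 and 20.3 CPM in the DMSO libraries at D1 and 31.6 and 29.8 CPM in the TCDD libraries. The groups were apart, and the level was 1.52-fold higher with TCDD (log2 0.60 ± 0.07 SE, edgeR adjusted p = 3.06e-05). This was the largest called change among the 3 families at D1. At D2 it had 6.83 and 7.93 CPM with DMSO and 9.02 and 8.61 CPM with TCDD (log2 0.25 ± 0.09 SE, edgeR adjusted p = 0.186), and the difference between the effects at the 2 times was not called (edgeR adjusted p = 0.245).

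ITGA6, used as a surface marker of pluripotent cells, was the one gene of the 3 families besides COL1A1 called higher with TCDD at both times. At D1 it had 288 and 269.7 CPM with DMSO and 371 and 350.2 CPM with TCDD (1.29-fold, log2 0.37 ± 0.05 SE, edgeR adjusted p = 6.48e-05). At D2 it had 246 and 239 CPM with DMSO and 307 and 309 CPM with TCDD (1.27-fold, log2 0.34 ± 0.05 SE, edgeR adjusted p = 8.11e-05). All 4 TCDD libraries lay above all 4 DMSO libraries. The difference between the effects was -0.03 ± 0.07 SE on the log2 scale (edgeR adjusted p = 0.931). The calls of COL23A1 at D1 and of ITGA6 at both times held without each of the 8 libraries in turn. ITGA6 overlaps an antisense gene, ITGA6-AS1, that the count tables do not list, so antisense reads cannot be told apart from its own.

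COL23A1 and ITGA6 are shown with the 250 bases before a RefSeq start (GRCh38.p14), because TCDD acts through the aryl hydrocarbon receptor, whose core DNA element is GCGTG. Each is written 5′ to 3′ along its gene, and capitals mark GCGTG or, for the other strand, CACGC. COL23A1 is at chr5:178590394-178590643 (minus strand) with 2 matches, and ITGA6 is at chr2:172427086-172427335 (plus strand) with 1 match on the other strand.
COL23A1: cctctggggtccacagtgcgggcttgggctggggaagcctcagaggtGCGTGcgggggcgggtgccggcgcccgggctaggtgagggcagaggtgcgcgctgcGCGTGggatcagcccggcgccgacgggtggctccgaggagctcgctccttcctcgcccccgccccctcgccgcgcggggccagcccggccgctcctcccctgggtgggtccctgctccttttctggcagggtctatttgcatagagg
ITGA6: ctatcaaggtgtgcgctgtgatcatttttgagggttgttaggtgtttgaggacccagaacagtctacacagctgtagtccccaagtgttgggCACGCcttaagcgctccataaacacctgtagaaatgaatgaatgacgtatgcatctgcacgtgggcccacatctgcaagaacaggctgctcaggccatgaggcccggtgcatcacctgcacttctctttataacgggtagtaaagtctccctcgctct
ITGA6 has another window in the table, chr2:172427336-172427585, with 0 matches. Over the 3 families, 24 of 77 windows (31.2%) held GCGTG on either strand, beside 32.2% of 35116 windows of all genes. The longer TTGCGTG was in 0 of the 77, beside 0.951% of all windows. COL9A2 and COL21A1 had 1 match each, in 1 of 1 and 1 of 3 windows, and ITGB1 had 0 in 2 windows. COL1A1 and ITGB4 had no window in the table, so they could not be read. A match is a description of letters and not a measured binding site.

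ITGB1 was lower with TCDD at D1, with 539 and 501 CPM in the DMSO libraries and 462 and 446 in the TCDD libraries (1.15-fold, log2 -0.20 ± 0.05 SE, edgeR adjusted p = 0.032). At D2 it had 382 and 380.2 CPM with DMSO and 379 and 390.0 CPM with TCDD, and was not called (log2 0.01 ± 0.05 SE, edgeR adjusted p = 0.943). The D1 call was lost without DMSO D1 replicate 1 (edgeR adjusted p = 0.622), TCDD D1 replicate 2 (0.14), DMSO D2 replicate 1 (0.0775) or DMSO D2 replicate 2 (0.0774), and in a fit of the 4 D1 libraries alone (0.136). Per kb, ITGA6 stood at 0.360 and 0.362 of ITGB1 with DMSO at D1 and at 0.539 and 0.529 with TCDD. At D2 the ratio was 0.434 and 0.423 with DMSO and 0.544 and 0.533 with TCDD.

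COL1A1 was higher with TCDD at both times. At D1 it had 322 and 328 CPM with DMSO and 384 and 364 with TCDD (1.15-fold, log2 0.20 ± 0.05 SE, edgeR adjusted p = 0.0356). At D2 it had 141 and 129 CPM with DMSO and 197 and 197 with TCDD (1.46-fold, log2 0.54 ± 0.05 SE, edgeR adjusted p = 3.59e-07). The groups were apart at each time, and the TCDD level at D2 was still below every D1 library. COL1A1 was the one gene of the 75 called in the test of the difference between the TCDD effects (1 of 75, beside 0.822% of all genes, 0.527% higher and 0.295% lower), which was 0.34 ± 0.07 SE on the log2 scale (edgeR adjusted p = 0.0175).

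The D2 call of COL1A1 held without each library in turn. Its D1 call was lost without DMSO D1 replicate 1 (edgeR adjusted p = 0.416), DMSO D1 replicate 2 (0.119), TCDD D1 replicate 1 (0.148) or TCDD D2 replicate 1 (0.0533), and in a fit of the 4 D1 libraries alone (0.104). The call of the difference was lost without DMSO D1 replicate 1 (0.0785), DMSO D1 replicate 2 (0.0845), DMSO D2 replicate 2 (0.194), TCDD D2 replicate 1 (0.0536) or TCDD D2 replicate 2 (0.0784). COL1A2 was not called with TCDD at D1 (log2 -0.03 ± 0.05 SE, edgeR adjusted p = 0.896) or D2 (-0.06 ± 0.05 SE, 0.664). Per kb, the ratio of COL1A1 to COL1A2 at D2 was 1.27 and 1.19 with DMSO and 1.86 and 1.88 with TCDD. None of the 6 tested fibroblast and mesenchyme markers was called with TCDD at either time by edgeR or DESeq2, with 1 at an unadjusted p below 0.05 in each. Their sums were 459 to 515 CPM with TCDD at D1, and 102 to 103 CPM with DMSO and 91.1 to 94.1 CPM with TCDD at D2, and LUM and FAP were at 0 in all groups.

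**Figure D4:**
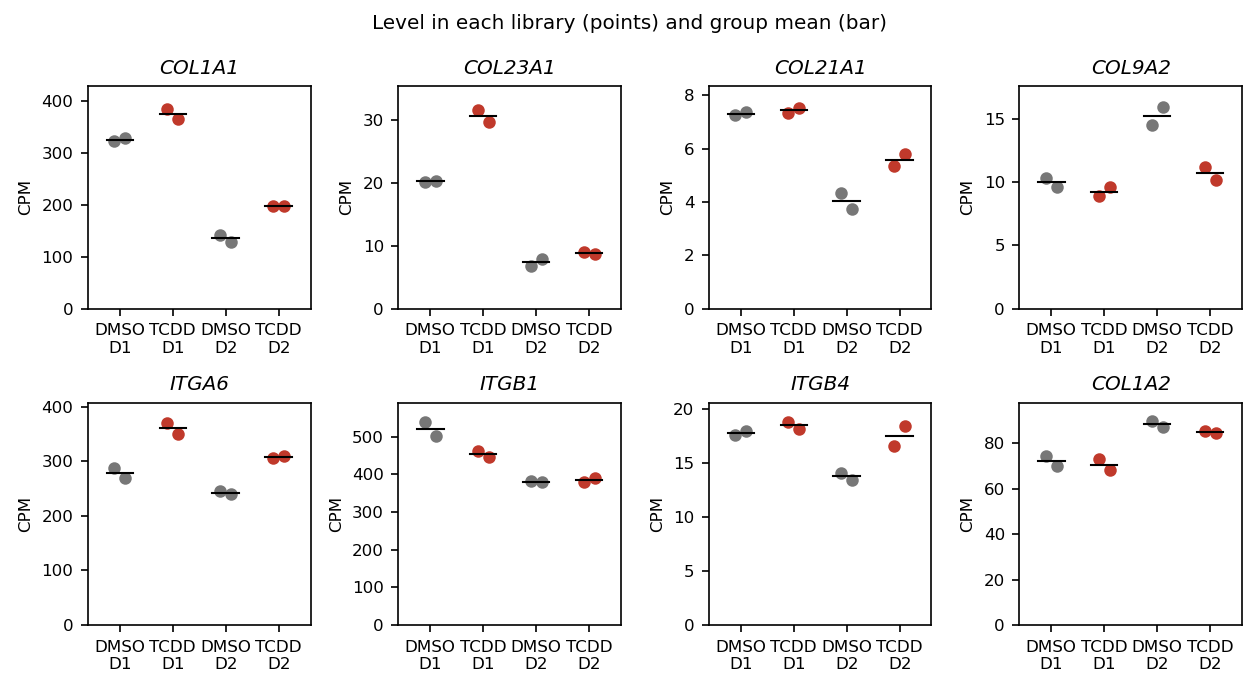
CPM in each library (points; grey DMSO, red TCDD; bars are means of 2 libraries) of the 7 genes called with TCDD at D1 or D2 and of COL1A2. The red points of ITGA6 and COL1A1 lie above the grey points of the same day, the red points of ITGB4 and COL21A1 lie above the grey ones at D2, and those of COL9A2 lie below them at D2.

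At D2, TCDD against DMSO gave 5 called genes among the 75, COL1A1, COL21A1, ITGA6 and ITGB4 higher and COL9A2 lower, or 6.67%, beside 2.9% of all genes (1.4% higher and 1.5% lower). None reached 2-fold, a size that 0.133% of all genes passed upward and 0.174% downward. The median log2 fold change of the 75 was -0.02, beside 0.00 over all genes. The 34 genes not called at 10 CPM or more in every group had log2 fold changes between -0.22 and 0.17. This comparison and D2 against D1 with DMSO use the same DMSO libraries of D2, so their values are not independent.

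ITGB4, the partner of ITGA6 in hemidesmosomes, had 14.0 and 13.4 CPM with DMSO at D2 and 16.6 and 18.4 with TCDD (1.27-fold, log2 0.35 ± 0.08 SE, edgeR adjusted p = 0.0117). At D1 the libraries held 17.5 and 17.9 CPM with DMSO and 18.8 and 18.1 with TCDD (log2 0.06 ± 0.07 SE, edgeR adjusted p = 0.873). The groups were apart at both times, and the difference between the effects was not called (edgeR adjusted p = 0.303). The D2 call was lost without DMSO D2 replicate 1 (0.0669), DMSO D2 replicate 2 (0.169) or TCDD D2 replicate 2 (0.256). Per kb, ITGA6 stood 15.9 to 20.9 times as high as ITGB4 over the 8 libraries.

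COL9A2, the alpha2 chain of type IX collagen, was the one gene of the 75 called lower with TCDD at D2. It had 14.5 and 15.9 CPM with DMSO and 11.2 and 10.2 with TCDD, and the groups were apart (1.43-fold, log2 -0.51 ± 0.09 SE, edgeR adjusted p = 0.00105). COL9A1 and COL9A3 were not called (log2 -0.17 ± 0.09 and -0.02 ± 0.05 SE). From D1 to D2, COL9A2 changed by 0.61 ± 0.09 SE with DMSO and by 0.22 ± 0.09 SE with TCDD on the log2 scale, and the difference was not called (edgeR adjusted p = 0.214). The rise of COL9A2 with TCDD was called at an edgeR adjusted p of 0.046 and held in 3 of 8 fits without 1 library and in 2 of 7 other settings. COL21A1, a fibril-associated collagen, had 4.34 and 3.72 CPM with DMSO at D2 and 5.37 and 5.81 with TCDD (1.39-fold, log2 0.47 ± 0.12 SE, edgeR adjusted p = 0.0314). Its call was lost with DESeq2 (adjusted p = 0.115) and without DMSO D2 replicate 1 (edgeR adjusted p = 0.0561), DMSO D2 replicate 2 (0.373), TCDD D2 replicate 1 (0.0626) or TCDD D2 replicate 2 (0.292).

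No laminin was called with TCDD at either time by edgeR or DESeq2, with 3 of 11 at an unadjusted p below 0.05 at D1 and 0 at D2 in edgeR. Their log2 fold changes lay between -0.39 and 0.04 at D1, with 9 of 11 below 0, and between -0.21 and 0.28 at D2. The lowest adjusted p was 0.133 at D1, for LAMB1 (175 and 171 CPM with DMSO, 158 and 153 with TCDD, log2 -0.15 ± 0.05 SE), and 0.472 at D2, for LAMC1. For the integrins, 3 of 23 at D1 and 4 of 23 at D2 had an unadjusted p below 0.05, and for the collagens 7 and 10 of 41. The share of all genes at that threshold is not given. No count of unadjusted p-values, here or for other lists, is therefore a result about those genes.

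**Figure D5:**
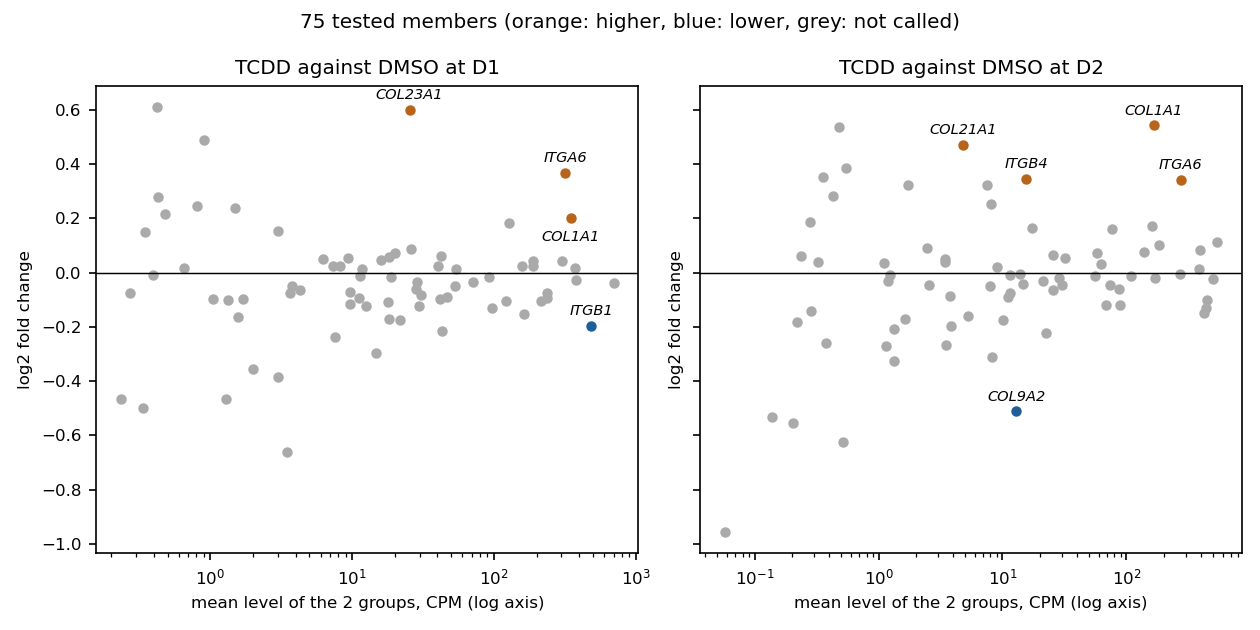
Log2 fold change of TCDD against DMSO at D1 (left) and D2 (right) against the mean level of the 2 groups in CPM (log axis) for the 75 tested genes; orange is called higher, blue called lower and grey not called. Called genes are named, and the widest grey scatter is at levels under 10 CPM.

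At D2 the marker lists of cell state differed between treatments. Of 7 primitive streak markers 5 were lower with TCDD (MIXL1, EOMES, T and WNT3 among them), and 2 of 7 pluripotency markers were higher (SOX2 and PODXL). Over all genes 1.5% were lower and 1.4% higher. The difference between the TCDD effects at the 2 times was called for MIXL1, SOX2 and PODXL (edgeR adjusted p = 0.0235, 2.38e-06 and 0.01) and for no other gene of these 2 lists. Over all genes 0.822% were called in that test. The differences of MIXL1 and PODXL did not hold in every fit without 1 library. At D1 none of either list was called by edgeR or DESeq2, with 2 and 3 of 7 at an unadjusted p below 0.05, while both sums were lower in the TCDD libraries than in the DMSO libraries without overlap. Other cell-state markers called lower with TCDD were KDR of early mesoderm and NES of neuroectoderm at D1, and GATA4, GATA6 and CER1 of mesoderm and endoderm at D2. DESeq2 called KDR, NES and GATA4 but not CER1 (adjusted p = 0.124), and it gave no adjusted p for GATA6. Without single libraries the calls of KDR, NES, GATA4, GATA6 and PODXL were lost (highest edgeR adjusted p = 0.395, 0.311, 0.12, 0.157 and 0.204). The part of cell state in these values was not tested. Endothelial markers summed to at most 18.7 CPM and blood markers to at most 2.78 CPM in any library.

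Genes that act with the 3 families were read from lists, whose counts from D1 to D2 with DMSO stand beside 32.5% of all genes called higher and 30.7% lower, a share of 63.2% in all. Their counts with TCDD stand beside 1.14% of all genes called at D1 (0.735% higher, 0.405% lower) and 2.9% at D2 (1.4% higher, 1.5% lower). For the difference between the TCDD effects the share of all genes was 0.822%. Enzymes of collagen folding, processing and crosslinking (31 tested) had 1 called higher with TCDD at D1, P4HA1, a prolyl hydroxylase subunit (155 and 157 CPM with DMSO, 190.1 and 184 with TCDD, log2 0.26 ± 0.05 SE, edgeR adjusted p = 0.00665). Its D2 effect was not called and the difference was (-0.33 ± 0.07 SE, edgeR adjusted p = 0.0208). In the other lists of matrix genes, given below, the difference was called for TNS3 and CD44 (edgeR adjusted p = 4.14e-05 and 0.0116). It was also called for SERPINE2, MMP16, ADAMTS1 and THBS2 (edgeR adjusted p = 0.000357, 0.00352, 0.00543 and 0.0373). DESeq2 called all of these differences. Those of CD44 and THBS2 did not hold in every fit without 1 library. At D2, P3H2, a prolyl 3-hydroxylase of basement membrane collagen, was higher (65.6 and 65.4 CPM with DMSO, 87.1 and 82.9 with TCDD, log2 0.38 ± 0.05 SE), and COLGALT2, a collagen galactosyltransferase, was lower (log2 -0.70 ± 0.12 SE). The P4HA1 calls were lost without DMSO D1 replicate 1 or 2, and that of the difference also without 3 of the D2 libraries (highest edgeR adjusted p = 0.13 and 0.159). From D1 to D2 with DMSO, 12 rose and 12 fell (77.4% called): PLOD2, a lysyl hydroxylase, rose (log2 1.12 ± 0.06 SE), while PLOD1 (-0.66 ± 0.05 SE) and SERPINH1, the collagen chaperone, fell (-0.70 ± 0.05 SE).

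Of 18 basement membrane partners, 13 fell and 1 rose from D1 to D2 with DMSO (72.2% and 5.56%), with a median log2 fold change of -0.46, beside 0.01 over all genes. NID1, which joins laminin to type IV collagen, fell from 138 and 141 to 96.2 and 89.5 CPM, and DAG1, the dystroglycan receptor of laminin, from 428 and 428 to 239.5 and 245 CPM. With TCDD, NID1 was lower at D1 (log2 -0.24 ± 0.05 SE, edgeR adjusted p = 0.022), and PXDN, which crosslinks type IV collagen, was higher at D2 (385 and 397 CPM with DMSO, 471 and 509.7 with TCDD, log2 0.33 ± 0.06 SE, edgeR adjusted p = 0.00412). Of 21 tested integrin ligands outside the collagens and laminins, 4 rose (19%) and 12 fell (57.1%) from D1 to D2 with DMSO (76.2% called). Smallest in p were THBS2, MFGE8, SPP1 and FBN2 (edgeR adjusted p = 3.78e-17, 1.97e-13, 6.42e-11 and 2.49e-09). Among the 4 rises were THBS2, a thrombospondin (log2 2.06 ± 0.06 SE), and FBN2, a fibrillin (0.75 ± 0.06 SE). With TCDD none of the 21 was called at D1 (7 at an unadjusted p below 0.05 in edgeR, 0 called in DESeq2). At D2, MFGE8 and THBS2 were higher and FBN2 and SPP1 lower, by at most 0.30 on the log2 scale. DESeq2 did not call SPP1 (adjusted p = 0.0799). Each of these 4 calls, and those of NID1 and PXDN, was lost in at least 2 of the 8 fits without 1 library, among them the fit without DMSO D1 replicate 1 for NID1 and without DMSO D2 replicate 1 for the others.

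Adaptors and kinases that link integrins to actin (36 tested) had 8 higher and 18 lower from D1 to D2 with DMSO (72.2% called). TLN2, a talin, rose (log2 1.16 ± 0.06 SE), and VCL, vinculin, fell from 510.2 and 473 to 282 and 271 CPM (-0.83 ± 0.05 SE). With TCDD none was called at D1 (1 at an unadjusted p below 0.05 in edgeR, 0 called in DESeq2). At D2, TNS3, a tensin that binds integrin beta tails, had 81.0 and 86.1 CPM with DMSO and 114 and 119 with TCDD (log2 0.48 ± 0.05 SE, edgeR adjusted p = 8.67e-06), and PXN, paxillin, was lower (-0.17 ± 0.05 SE). The TNS3 call held without each library, while that of PXN held in 2 of 8 such fits and was not made by DESeq2 (adjusted p = 0.0799). Among 13 other matrix receptors, 4 rose and 9 fell from D1 to D2 with DMSO, so all were called by edgeR. DESeq2 called 12 of the 13, without GP6 (adjusted p = 0.169). Smallest in p were CD44, SDC2, SDC4 and SDC3 (edgeR adjusted p = 5.56e-14, 1.48e-12, 2.16e-11 and 5.18e-11). CD44, the hyaluronan receptor, was 1 of the 4 that rose, from 7.18 and 5.95 to 25.2 and 24.7 CPM. It was higher again with TCDD at D2 (35.2 and 34.9 CPM, log2 0.49 ± 0.07 SE, edgeR adjusted p = 0.000129). DDR1, a collagen receptor kinase, was the other one called higher with TCDD at D2 (log2 0.19 ± 0.05 SE), a call lost without any 1 of the 4 D2 libraries (highest edgeR adjusted p = 0.275). With TCDD at D1, none of these 13 was called by edgeR or DESeq2, with 2 at an unadjusted p below 0.05.

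Matrix proteases and their inhibitors (23 tested) had 4 higher (17.4%) and 16 lower (69.6%) from D1 to D2 with DMSO (87% called). Smallest in p were SERPINE2, ADAMTS1, MMP2 and PLAU (edgeR adjusted p = 7.62e-16, 2.98e-14, 6.08e-14 and 6.11e-13). SERPINE2, an inhibitor of matrix serine proteases, was 1 of the 4 that rose, from 106 and 95.4 to 317 and 299.9 CPM. With TCDD at D2 it stood at 176 and 177 CPM (log2 -0.80 ± 0.05 SE, edgeR adjusted p = 3.04e-09). ADAMTS1, a proteoglycan-cleaving protease, had 32.4 and 33.8 CPM with DMSO at D2 and 17.8 and 19.5 with TCDD (log2 -0.83 ± 0.07 SE). MMP2, a gelatinase, was also lower with TCDD at D2 (-0.24 ± 0.05 SE), and MMP16, a membrane protease, was higher (0.48 ± 0.07 SE). The MMP2 call was lost without DMSO D2 replicate 1 (edgeR adjusted p = 0.101). At D1, ADAMTS4 and SERPINE2 were called lower with TCDD (-0.33 ± 0.08 and -0.23 ± 0.06 SE), but each call held in only 2 of 8 fits without 1 library (highest edgeR adjusted p = 0.202 and 0.721), and DESeq2 did not call ADAMTS4 (adjusted p = 0.177).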

How the data were processed

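Per the labels, RNA of MEL1 cells was sequenced in 8 libraries, 2 in each of 4 groups. The deposited tables hold the authors' raw read counts per gene symbol. The submitters' processing notes name cutadapt 1.9.1, STAR, featureCounts 1.5.1 and the build hg19. The annotation, strand setting and handling of multi-mapping reads are not given here, so near-identical copies and overlapping genes are uncertain.

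Totals were 34873055 to 43770420 counts. Genes low in all groups were removed with filterByExpr (17268 remained), and libraries were scaled by TMM (0.958 to 1.04). In R 4.3.3, edgeR 4.0.16 fitted all 8 libraries in 1 quasi-likelihood model with a mean per group and robust empirical Bayes (common biological coefficient of variation 3.86%). All p-values are two-sided and were adjusted over these 17268 genes by the Benjamini-Hochberg method. SE is the log2 fold change divided by the root of the F statistic. Replicates differed by more than sampling noise (chi-square per gene 3.21 to 6.59) and each counted as a sample. The fit was tested on simulated data. Genes named always, every gene called with TCDD and the largest called changes of each family from D1 to D2 were the named genes, and others were named after their values were seen. The genes and lists were chosen with earlier results of these data known. Alternatives were RLE factors, no composition scaling, DESeq2 1.42.0, no filter, only the 4 libraries compared, a replicate block and leaving out each library. A fit without robust empirical Bayes was added after seeing the data. Promoter windows came from RefSeq (GRCh38.p14), which had entries for 58 of the 82 genes. A result for 1 gene is not reported here.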

Additional observations from a re-analysis of the deposited data

Results flagged for a closer look

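COL1A1 was singled out because its response to TCDD differed between the 2 times in a direct test of that difference. The log2 effect at D2 minus that at D1 was 0.34 ± 0.07 SE (edgeR adjusted p = 0.0175), and the level was higher with TCDD in both libraries at each time. The difference was called in 3 of the 8 fits that left out a library. Groups of 2 libraries are too small for the check of single samples.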

How the results depend on the processing

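Without a filter on low counts, 8 genes of the 3 families were called with TCDD at D1 in place of 4, 11 at D2 in place of 5, and 2 for the difference of the TCDD effects in place of 1. The fit of the 4 D1 libraries alone called 2 at D1, and that fit does not apply to the difference. Leaving out each library in turn gave 2 to 5 called genes at D1, 3 to 6 at D2, 0 to 2 for the difference, 54 to 60 for D2 against D1 with DMSO and 50 to 57 with TCDD. Of the 75 calls of named genes over the 5 comparisons, 0 changed sign under any alternative run. All alternatives run kept the call for 2 of 4 named genes with TCDD at D1, 3 of 5 at D2, 0 of 1 for the difference, 32 of 34 from D1 to D2 with DMSO and 28 of 31 with TCDD. Without composition scaling the median log2 fold change of all genes from D1 to D2 with TCDD was -0.112. Without robust empirical Bayes the counts were 4, 5, 60, 57 and 1, as in the reported fit.

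With the replicate number as a block, 4, 5, 60, 56 and 1 genes were called for TCDD at D1, TCDD at D2, time with DMSO, time with TCDD, and the difference of the TCDD effects. Deviations of same-numbered libraries correlated between -0.1 and 0.11, so they shared little deviation. The labels do not say whether same-numbered libraries belong together, and weak correlations cannot decide it.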
